A study of Mus musculus with 6 samples.

Results

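Atf4 and a set of genes tied to it by amino acid supply were followed across losses of the Notch ligand gene Dll4 in mouse heart endothelium. The set has 10 members, Atf4, Asns, Trib3, Ddit3, Chac1, Sesn2, Slc3a2, Slc7a1, Slc7a5 and Slc7a11, which were taken by symbol from the 41214 genes of the deposited table. Endothelial cells were sorted from embryonic hearts as CD31-positive, GFP-positive cells, and 6 RNA libraries were made, 2 for each of 3 genotypes. All groups carried Pdgfb-iCreERT2-IRES-EGFP, a transgene in which the endothelial Pdgfb gene drives a tamoxifen-inducible Cre recombinase and GFP, and all had tamoxifen at E13.5 and collection at E14.5. In the KO group (Dll4-/-, replicates 1 and 2) both Dll4 alleles were floxed. The het group (Dll4+/-, replicates 2 and 3) had a single floxed allele, and the wt group (replicates 4 and 5) had none. The labels name several litters but do not tie a library to an animal, so p-values measure the spread between these libraries, which may be technical.

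Atf4 is a transcription factor whose protein is made mainly when the initiation factor eIF2 is phosphorylated by kinases that sense missing amino acids, unfolded protein in the endoplasmic reticulum or other stress. It then raises genes that make, import and load amino acids, and genes that limit the response. Because this control acts on translation, the Atf4 transcript level alone does not report how much Atf4 protein is active. Endothelial cells depend on imported arginine, leucine and glutamine for nitric oxide production and growth.

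Atf4 binds with C/EBP partners to a composite element whose core can be written TGATGNAA. Its letters were searched on both strands of the RefSeq promoter windows (GRCm38.p6, 250 bases before to 50 bases after a gene's start), where 3.97% of 32851 windows held it. The stricter form TGATGCAA, which is contained in it, was in 0.895%. Of the 9 members with a window, 4 held TGATGNAA (Asns, Trib3, Chac1 and Slc7a11) and 2 of these held TGATGCAA (Chac1 and Slc7a11). The stretches of these windows that hold the matches are shown, with the matched letters in capitals. A stretch of Slc7a1, the tested member that fell in KO against wt, is shown beside them, and its 2 windows held no match. The windows of Atf4, Ddit3, Sesn2 and Slc3a2, which are not shown, held none either. Sequence more than 50 bases past a start was not searched. Stretches of Asns, Chac1, Slc7a11 and Slc7a1 are 150 bases long. That of Trib3 is 30 bases around its match, which begins 15 bases past the start. Matches on the opposite strand appear as the reverse complement. A match is a description of the letters, not a bound site.
Asns (chr6:7693210-7693359, minus strand): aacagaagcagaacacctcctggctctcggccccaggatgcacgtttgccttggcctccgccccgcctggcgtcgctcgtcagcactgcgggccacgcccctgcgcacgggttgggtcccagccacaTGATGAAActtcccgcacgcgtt
Chac1 (chr2:119350992-119351141, plus strand): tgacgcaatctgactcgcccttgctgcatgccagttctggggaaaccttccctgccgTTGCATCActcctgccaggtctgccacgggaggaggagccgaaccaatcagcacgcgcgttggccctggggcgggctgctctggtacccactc
Slc7a11 (chr3:50443614-50443763, minus strand): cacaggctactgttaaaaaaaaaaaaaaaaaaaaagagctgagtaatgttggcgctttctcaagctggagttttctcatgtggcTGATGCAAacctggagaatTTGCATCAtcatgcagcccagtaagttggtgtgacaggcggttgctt
Slc7a1 (chr5:148399905-148400054, minus strand): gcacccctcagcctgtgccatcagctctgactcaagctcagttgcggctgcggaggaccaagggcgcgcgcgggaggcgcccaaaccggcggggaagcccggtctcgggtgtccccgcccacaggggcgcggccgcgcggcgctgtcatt
Trib3 (chr2:152344028-152344057, minus strand): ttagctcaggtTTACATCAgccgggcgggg

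The libraries held between 1537908 and 6501798 expected counts, the KO libraries being the deepest. Levels are given as CPM, counts scaled to each library's TMM-adjusted total. Dll4 followed the labels, at 19.4 and 13.7 CPM in KO, 81.2 and 85.8 CPM in het and 196 and 183 CPM in wt. The KO libraries also differed in makeup: Lars2 took 0.0572% and 0.0611% of counts in KO, against 16.3% to 17.1% in het and wt. Mitochondrially encoded genes took 1.13% and 0.971% in KO, against 2.5% to 6.04% in het and wt. Genotype and any batch that set the KO libraries apart cannot be told apart. Summed over 10 endothelial markers, levels were 5306 and 5127 CPM in KO, 5906 and 6215 in het, and 6609 and 6235 in wt, with 2 of the 10 higher and 4 lower in KO against wt (5 and 2 with library size alone). Cardiomyocyte markers summed to 56.4 and 49.0 CPM in KO, 228 and 169 in het and 118 and 104 in wt, and 4 of their 7 tested genes fell in KO against wt. Mural and fibroblast markers summed to 105 and 52.8 CPM in KO, 185 and 255 in het and 76.6 and 123 in wt, with 1 of 7 higher and 2 lower in KO. In KO against het, all 7 cardiomyocyte genes and 3 of the 7 mural and fibroblast genes fell. Over all genes tested, 14.7% were higher and 17.3% lower in KO against wt, and 13.9% and 17.2% in KO against het. Macrophage and blood markers summed to 140 and 90.8 CPM in KO, 266 and 236 in het and 209 and 133 in wt. None of their 7 tested genes was called in KO against wt by edgeR, DESeq2 or limma-voom, with 0 at an unadjusted p under 0.05 in edgeR, and 2 fell in KO against het. The part these differences play in the results on the members was not tested. In bulk RNA, fewer cells of a type and less RNA per cell cannot be told apart.

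The members were expressed at very different levels. Per kilobase of annotated exon, Atf4 stood highest in every group, at 65.3 ± 5.97 CPM per kb in KO, 76.3 ± 3.54 in het and 57.9 ± 2.04 in wt (SD, n = 2 each). In wt it was followed by Slc3a2 (28.6 ± 6.69), Asns (18.9 ± 1.07), Slc7a5 (18.4 ± 2.40) and Slc7a1 (11.2 ± 0.442). The order then ran through Trib3 (5.94 ± 1.28), Sesn2 (4.86 ± 0.598), Ddit3 (2.23 ± 0.0231) and Chac1 (0.710 ± 0.635), down to Slc7a11 (0.207 ± 0.0993). In wt the libraries overlapped between Asns and Slc7a5, between Trib3 and Sesn2, and between Chac1 and Slc7a11, so these neighbours were not separated. In KO the order of means changed for Slc7a1 and Chac1. Slc7a1, at 4.23 ± 0.703 CPM per kb, ranked below Trib3, Sesn2 and Chac1, although its KO libraries overlapped those of Chac1 and of Ddit3. Chac1, at 6.17 ± 4.02 CPM per kb in KO, ranked above Slc7a1 and Ddit3. In wt, where it rests on 1 and 3 counts, it ranked below both.

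**Figure D1:**
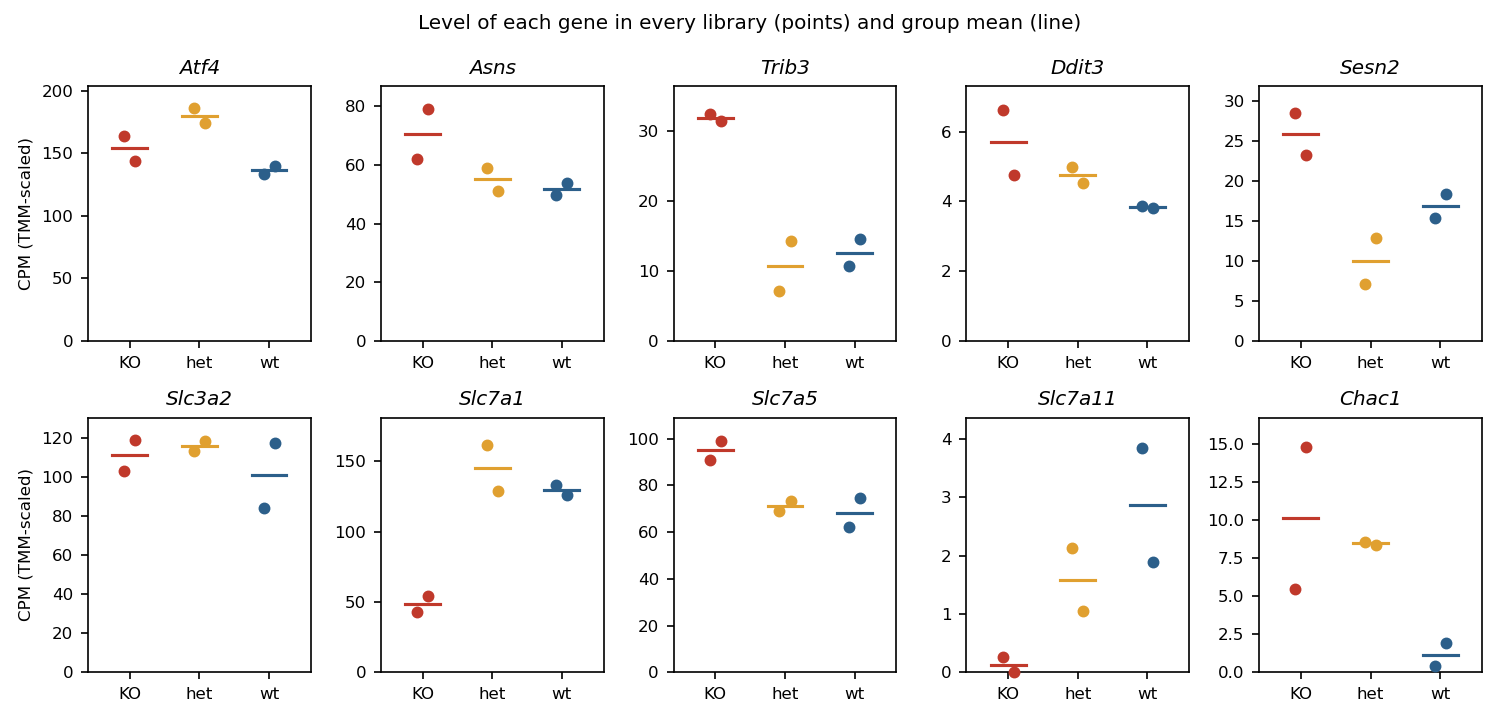
Level of each of the 10 genes as TMM-scaled CPM (vertical axis, each panel from 0) in the 2 KO, 2 het and 2 wt libraries; points are libraries and lines group means. Trib3 stands at 31.4 to 32.5 CPM in KO against 7.12 to 14.6 CPM in the other 4 libraries, and Slc7a1 at 43.0 to 54.5 CPM in KO against 126 to 162 CPM.

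Of the 10 members, 9 passed the filter on low counts, all but Slc7a11. In KO against wt edgeR's quasi-likelihood test, at a Benjamini-Hochberg adjusted p under 0.05, called 32% of the 10952 genes tested, 14.7% higher and 17.3% lower. With Chac1 set aside, 2 of the 8 tested members rose (Trib3 and Slc7a5), 1 fell (Slc7a1) and 5 were not called, a share close to that background. Counting all 10 members, both KO libraries lay above both wt libraries for 7 (33.2% of genes tested) and below for 2 (34.5%), and Slc3a2 overlapped. The median log2 fold change of the 8 was 0.47, against -0.02 over all genes tested. In KO against het the background was 31.2% (13.9% higher and 17.2% lower), and 3 of the 8 rose (Trib3, Sesn2 and Slc7a5) and 1 fell (Slc7a1), with a median of 0.32. Of the 10, the KO libraries lay above both het libraries for 4 (31.4% of genes tested) and below for 3 (33%). In het against wt the background was 0.173% (0.128% higher and 0.0457% lower), and none of the 8 was called by edgeR, DESeq2 or limma-voom. At an unadjusted p under 0.05 in edgeR there was 1 of the 8, Atf4. Both het libraries lay above both wt libraries for 3 of the 10 (Atf4, Ddit3 and Chac1; 19.2% of genes tested) and below for 1, Sesn2 (18.8%). KO against wt and KO against het share the KO libraries, so these counts are not independent.

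Scaling decides part of this picture. With library size alone in place of TMM, the median over all tested genes in KO against wt moved to a log2 fold change of 0.35, 3878 genes were called higher and 1034 lower (1610 and 1899 with TMM), and of the 9 tested members 7 were called higher and 1 lower. Directions are therefore relative to the bulk of genes. Trib3 and Slc7a1 kept their calls and directions under this scaling. Without wt replicate 4 the members called in KO against wt numbered 2, again Trib3 and Slc7a1.

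**Figure D2:**
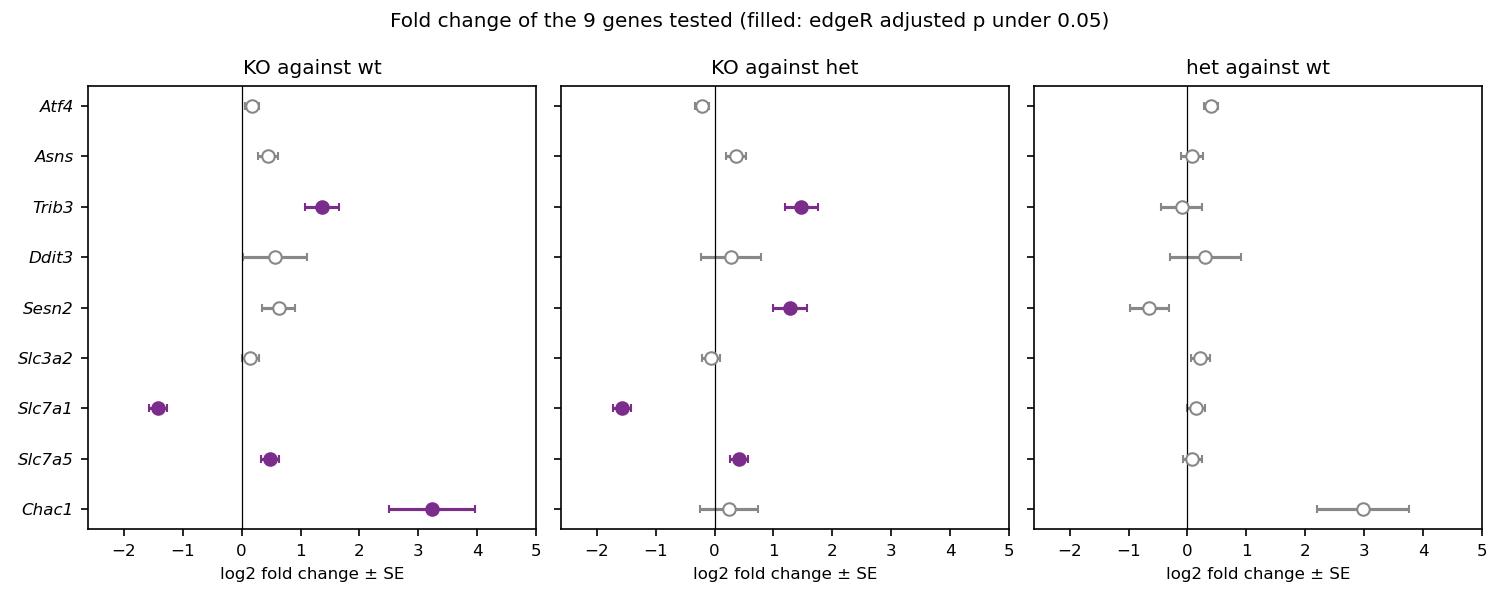
Log2 fold change (horizontal axis) with its standard error for the 9 tested genes in KO against wt, KO against het and het against wt; filled points had an edgeR adjusted p under 0.05. Slc7a1 lies at -1.42 and -1.57 and Trib3 at 1.36 and 1.47 in the KO comparisons, and no gene is filled in het against wt.

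Atf4 (ENSMUSG00000042406, chromosome 15, 80255184 to 80257541, GRCm38) was not called in any comparison with TMM scaling. Its libraries held 164 and 144 CPM in KO, 186 and 174 CPM in het and 133 and 140 CPM in wt. Both het libraries were the highest and both wt libraries the lowest. The log2 fold change was 0.18 ± 0.12 (SE) in KO against wt, -0.22 ± 0.12 in KO against het and 0.40 ± 0.12 in het against wt, with edgeR adjusted p = 0.277, 0.161 and 0.287. With library size alone, the value was 0.54 in KO against wt (edgeR adjusted p = 0.00102), a call, and turned to 0.16 in KO against het. The het value had an unadjusted p of 0.00431 in edgeR and both het libraries lay above both wt libraries. Across the 6 libraries, the genes outside the lists with the highest Pearson correlation to Atf4 in log2 CPM were Cyth4 (r = 0.986), Fbxl4 (r = 0.983) and Ppp1r10 (r = 0.982). They were picked from all tested genes and the points share the same 6 libraries, so these values only describe likeness.

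Trib3 (ENSMUSG00000032715, chromosome 2, 152337422 to 152344032) rose in KO. It encodes a pseudokinase that is induced by Atf4 and Ddit3 and in turn dampens their activity. Its levels were 32.5 and 31.4 CPM in KO, 7.12 and 14.3 CPM in het and 10.7 and 14.6 CPM in wt. Both KO libraries stood above the other 4, while het and wt overlapped. The rise was 2.57-fold against wt (log2 fold change 1.36 ± 0.29, edgeR adjusted p = 9.20e-04) and 2.76-fold against het (1.47 ± 0.28, edgeR adjusted p = 4.62e-04). It was called in all 14 alternatives tried in each of these comparisons. The log2 fold change against het was 2.16 without het replicate 3 and 1.17 without het replicate 2. The het libraries rest on 10 and 41 counts, against 250 and 185 in KO and 25 and 23 in wt, and het against wt gave a log2 fold change of -0.10 ± 0.35.

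Asns (ENSMUSG00000029752, chromosome 6, 7675169 to 7693254), which encodes the enzyme that makes asparagine from aspartate and glutamine, lay just outside the threshold. It stood at 62.1 and 79.1 CPM in KO, 59.1 and 51.3 CPM in het and 49.7 and 53.8 CPM in wt. Both KO libraries were above the rest, and het overlapped wt. The log2 fold change was 0.45 ± 0.17 in KO against wt (edgeR adjusted p = 0.0504) and 0.37 ± 0.17 in KO against het (edgeR adjusted p = 0.108). It was called against wt in 8 of 14 alternatives, whose adjusted p ranged from 6.71e-04 to 0.359, so its place relative to the threshold depends on the settings.

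Sesn2 (ENSMUSG00000028893, chromosome 4, 132492032 to 132510501) rose in KO against het. It encodes a leucine-binding protein that restrains the growth kinase complex mTORC1. Its libraries held 28.4 and 23.2 CPM in KO, 7.12 and 12.9 CPM in het and 15.4 and 18.4 CPM in wt. The KO libraries were the highest and the het libraries the lowest, with no overlap between any pair of groups. The rise against het was 2.42-fold (log2 fold change 1.28 ± 0.29, edgeR adjusted p = 0.00201) and was called in all 14 alternatives, with a log2 fold change of 1.86 without het replicate 3 and 1.01 without het replicate 2. Neither KO against wt (0.63 ± 0.28, edgeR adjusted p = 0.0867) nor het against wt (-0.65 ± 0.33, edgeR adjusted p = 0.653) was called. The het libraries rest on 10 and 37 counts. A partly overlapping gene on the same strand, Gm12981, could share its reads.

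Ddit3 (ENSMUSG00000025408, chromosome 10, 127290774 to 127296288), the gene of the stress transcription factor CHOP, was low throughout, at 6.62 and 4.75 CPM in KO, 4.99 and 4.54 CPM in het and 3.85 and 3.80 CPM in wt. Its libraries rest on 51 and 28 counts in KO, 7 and 13 in het and 9 and 6 in wt. The log2 fold change was 0.57 ± 0.54 in KO against wt, with edgeR adjusted p = 0.448. Ddit3 overlaps Mars, the methionyl-tRNA synthetase gene, on the opposite strand, and the libraries do not keep strand, so its few reads are uncertain.

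Among the transporters, Slc7a1 fell in KO and Slc7a5 rose, while Slc3a2 was not called. Slc7a1 (ENSMUSG00000041313, chromosome 5, 148327410 to 148399904) encodes CAT-1, the main importer of arginine and lysine in many cells. It had 43.0 and 54.5 CPM in KO, 162 and 129 CPM in het and 133 and 126 CPM in wt. The KO libraries were far below the other 4, and the het and wt libraries overlapped. The fall was 2.67-fold against wt (log2 fold change -1.42 ± 0.15, edgeR adjusted p = 3.79e-07) and 2.96-fold against het (-1.57 ± 0.15, edgeR adjusted p = 9.27e-08). In the 14 alternatives the value against wt stayed between -1.59 and -1.06 and was called each time. The het value against wt was 0.15 ± 0.15 (edgeR adjusted p = 0.847).

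Slc7a5 (ENSMUSG00000040010, chromosome 8, 121881150 to 121907694) encodes LAT1, which imports leucine and other large neutral amino acids in exchange for glutamine, and works only when paired with the heavy chain CD98 made from Slc3a2. Slc7a5 stood at 90.8 and 99.1 CPM in KO, 69.1 and 73.3 CPM in het and 62.1 and 74.7 CPM in wt. The KO libraries were above the other 4, and het lay within the wt range. The rise was 1.40-fold against wt (log2 fold change 0.48 ± 0.15, edgeR adjusted p = 0.0164) and 1.33-fold against het (0.41 ± 0.15, edgeR adjusted p = 0.0398). The call against wt was lost without KO replicate 2 (edgeR adjusted p = 0.106), without wt replicate 4 (0.185) and with DESeq2 (adjusted p = 0.0675). The call against het was lost without each KO or het library in turn (edgeR adjusted p from 0.0635 to 0.188) and with DESeq2 (adjusted p = 0.130). Another annotated gene, Gm20388, overlaps Slc7a5 on the opposite strand.

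Slc3a2 (ENSMUSG00000010095, chromosome 19, 8706882 to 8723369) had 103 and 119 CPM in KO, 113 and 118 CPM in het and 84.3 and 118 CPM in wt. The 3 groups overlapped, with wt replicate 5 inside the KO range and wt replicate 4 below every other library. Its log2 fold change was 0.15 ± 0.15 in KO against wt and -0.06 ± 0.15 in KO against het (edgeR adjusted p = 0.472 and 0.792). Whether Slc7a5 and its partner differed in their response was not tested.

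Slc7a11 (ENSMUSG00000027737, chromosome 3, 49892526 to 50443614) encodes xCT, the CD98-linked antiporter that imports cystine for glutathione synthesis and releases glutamate. It was close to absent and was not tested. The KO libraries held 2.04 and 0 expected counts, the het libraries 3 and 3, and the wt libraries 9 and 3. This is 0.260 and 0 CPM in KO, 2.14 and 1.05 CPM in het and 3.85 and 1.90 CPM in wt, so the KO libraries lay below the other 4. A count of 0 allows up to 3 counts, or 0.509 CPM in KO replicate 2, by counting error alone. Without the filter on low counts the fitted log2 fold change in KO against wt was -4.03 ± 1.42 (edgeR adjusted p = 0.0254), a size that depends on the prior count. Slc7a11 also passed the filter without het replicate 2 (edgeR adjusted p = 0.0280) and without wt replicate 5 (0.0618). The Slc7a11 window printed above held TGATGCAA on each strand, 66 and 47 bases before the start.

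Chac1 (ENSMUSG00000027313, chromosome 2, 119351229 to 119354381) is set apart because it lies 15.3 kb past the end of Dll4. It encodes a cyclotransferase that degrades glutathione and is a known Atf4 target. It had 5.46 and 14.8 CPM in KO, 8.55 and 8.38 CPM in het and 0.428 and 1.90 CPM in wt. All 4 libraries with a floxed Dll4 allele stood above both wt libraries, and the KO libraries spanned the het values. The wt level rests on 1 and 3 counts, against 42 and 87 in KO and 12 and 24 in het. The log2 fold change was 3.23 ± 0.73 in KO against wt (edgeR adjusted p = 0.00192) and 2.98 ± 0.78 in het against wt (edgeR adjusted p = 0.163, unadjusted p = 0.00118). The het value was called with no filter on low counts (edgeR adjusted p = 0.00532) and in no other alternative. By summed counts the ratio was 9.29 in KO against wt (exact 95% interval 3.54 to 34.6) and 8.26 in het against wt (2.96 to 31.9), intervals that cover counting error only. KO against het gave 0.24 ± 0.49 (edgeR adjusted p = 0.765). Unlike Trib3, Slc7a1 and Slc7a5, whose het libraries overlapped wt, Chac1 thus had het libraries at the KO level, although the difference between the genes was not tested. The pattern was not particular to Chac1. Ddit3 too had het libraries above wt and overlapping KO, and Atf4 had het libraries above wt. Among genes within 250 kb of Dll4, Knl1 had the same order, and Dnajc17 had het libraries below wt and overlapping KO. The log2 fold changes of Dnajc17 relative to wt were -1.70 ± 0.56 for het and -1.47 ± 0.48 for KO. Its het libraries rest on 3 and 11 counts. Ino80, also in this window, had het libraries that overlapped wt. Whether nearness to Dll4 plays a part was not tested. Outside the members, Ppp1r15a stood 1.72-fold higher in het and 1.55-fold higher in KO than in wt, with its het libraries above wt and overlapping KO. In KO against wt the log2 fold change was 2.34 without KO replicate 2 (edgeR adjusted p = 0.0502) and 2.41 without wt replicate 4 (0.0787), where the call was lost, as it was with limma-voom (adjusted p = 0.0950). It was 4.45 without wt replicate 5. In het against wt it was 2.13 without wt replicate 4 and 4.2 without wt replicate 5.

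The other genes around Dll4 moved both ways. Within 250 kb, 10 tested genes besides Dll4 were named, and without Chac1 these are 9, of which 2 were called higher and 3 lower in KO against wt, where 32% of all genes tested were called. The chromatin remodeller gene Ino80, 37.1 kb away, fell 3.38-fold (log2 fold change -1.76 ± 0.29, edgeR adjusted p = 8.22e-05). The vacuolar sorting gene Vps18, 27.3 kb away, rose 1.83-fold and Rmdn3 1.74-fold, while Dnajc17 fell 2.78-fold and Chp1 1.37-fold. These 4 calls were each lost without wt replicate 4 (edgeR adjusted p between 0.0773 and 0.358), as well as in other settings. In het against wt none of the 10 was called, and only Chac1 (2.98) and Dnajc17 (-1.70) had a log2 fold change beyond 1 in size.

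**Figure D3:**
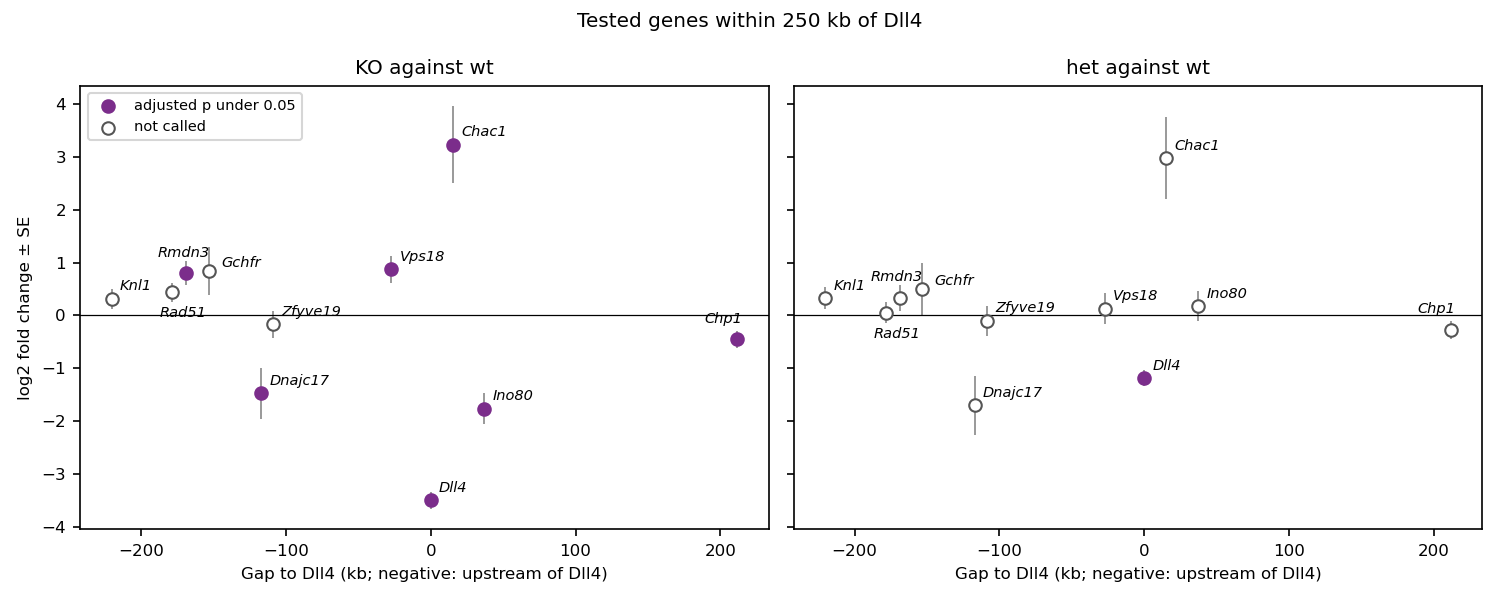
Log2 fold change with its standard error (vertical axis) against the gap to Dll4 in kb (horizontal axis) for Dll4 and the 10 named genes tested within 250 kb; filled points had an edgeR adjusted p under 0.05. Chac1, at 15.3 kb, is the highest point in both comparisons, at 3.23 in KO against wt and 2.98 in het against wt.

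The rest of the Atf4 pathway was read from 7 lists, each to be set against the 32% of all tested genes called in KO against wt (14.7% higher and 17.3% lower). The first, the eIF2 list, holds regulators of the response to eIF2 phosphorylation, among them eIF2 kinases, phosphatase subunits and transcription factors such as Atf5. Of its 13 tested genes, 4 rose and 1 fell in KO against wt, with a median log2 fold change of 0.10 against -0.02 over all genes. The calls of both directions together were near the background share. Rises outnumbered falls on this list, while falls outnumbered rises over all genes. Eif2s1, the phosphorylated eIF2 subunit itself, rose 1.53-fold to 243 ± 2.18 CPM in KO, against 159 ± 7.37 CPM in wt (SD, n = 2 each; edgeR adjusted p = 1.59e-04). Ppp1r15b, a constitutive subunit of the eIF2 phosphatase, rose 1.69-fold, and Eif2ak3, the gene of the ER stress kinase PERK, rose 1.65-fold. Ppp1r15a, the stress-induced phosphatase subunit, rose 1.55-fold and is named after its value was seen. Atf5, a close relative of Atf4, fell to 0.489 ± 0.508 CPM in KO, against 5.11 ± 1.86 CPM in wt (SD, n = 2 each), on 6 counts in KO and 21 in wt, a ratio of 12.2-fold lower with an exact 95% counting interval of 4.74 to 36.8. Without wt replicate 4 only 2 rose and none fell, since Eif2ak3 (edgeR adjusted p = 0.0516), Ppp1r15a (0.200) and Atf5 (0.162) lost their calls.

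Of 18 other tested genes described as Atf4-regulated, 5 rose and 1 fell, with a median of 0.50. Over all tested genes 14.7% rose and 17.3% fell. Both directions together were again near the background of 32%, with rises outnumbering falls on this list. With library size alone 10 rose and 1 fell. Vegfa, the endothelial growth factor gene, rose 2.39-fold to 98.0 ± 4.15 CPM in KO, against 41.3 ± 5.13 CPM in wt (edgeR adjusted p = 1.48e-05). The mitochondrial folate enzyme genes Shmt2 and Mthfd2 rose 1.55-fold and 1.77-fold, and the proline synthesis gene Aldh18a1 rose 1.69-fold. The serine synthesis gene Psat1 rose 1.33-fold. Mthfd2 and Psat1 are named after their values were seen. Ddit4, an inhibitor of mTORC1, fell to 6.53 ± 2.52 CPM in KO, against 42.3 ± 6.15 CPM in wt (SD, n = 2 each; edgeR adjusted p = 1.95e-07). Counts of rises were 3 without KO replicate 2 or wt replicate 5 and with DESeq2, as Mthfd2 and Psat1 lost their calls there.

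The list that moved as a whole in its count was that of 12 aminoacyl-tRNA synthetases, which charge tRNAs with amino acids and are known Atf4 targets. These 12 were chosen as part of the Atf4 programme and are not the whole family, whose other genes were not read as a set. Lars2, a synthetase gene outside the list, took 0.0572% and 0.0611% of counts in KO, against 16.3% to 17.1% in het and wt. All 12 rose in KO against wt, where 14.7% of genes tested did, and all 12 rose in KO against het, where 13.9% did. The list was chosen with earlier results of these data known, so its count is a description. Yars rose 1.84-fold to 104 ± 10.2 CPM in KO, against 56.8 ± 1.06 CPM in wt (SD, n = 2 each), and Iars 1.77-fold, Tars 1.77-fold and Aars 1.69-fold (edgeR adjusted p between 3.52e-05 and 1.31e-04 for these 4). The log2 fold changes of these 12 had a median of 0.68 against wt. Mars, among them, overlaps Ddit3. Without wt replicate 4 the count was 10, and in the other 13 alternatives it was 11 or 12.

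Other amino acid transporters of the cell surface had 4 called higher and 4 lower of 15 tested, against 14.7% and 17.3% of all tested genes, and a median log2 fold change of 0.48. The 8 are named although only Slc36a1, Slc1a5, Slc38a4 and Slc6a6 come under the naming rule. Those that rose were the glutamine carrier gene Slc1a5 (1.98-fold), the neutral amino acid carrier gene Slc38a4 (2.16-fold), Slc36a4 (1.80-fold) and Slc43a1, which like LAT1 carries large neutral amino acids (1.5-fold). Those that fell were the proton-coupled carrier gene Slc36a1 (7.46-fold), the taurine carrier gene Slc6a6 (1.56-fold), and Slc7a6 (1.58-fold) and Slc7a7 (1.68-fold), whose products pair with CD98 and exchange cationic for neutral amino acids. Slc1a5 reached 133 ± 1.73 CPM in KO, against 67.7 ± 8.01 CPM in wt, and Slc36a1 stood at 1.99 ± 0.0619 CPM in KO, against 14.9 ± 3.16 CPM in wt (SD, n = 2 each; edgeR adjusted p = 1.44e-05 and 1.34e-05). With library size alone 8 were called higher and 1 lower, since Slc6a6, Slc7a6 and Slc7a7 lost their calls (edgeR adjusted p = 0.0571, 0.178 and 0.125). Slc43a1 lost its call with DESeq2 (adjusted p = 0.111), and Slc7a7 with thinned counts (edgeR adjusted p = 0.136). Slc43a1, Slc7a6 and Slc7a7 also lost their calls on leaving out a library. Without wt replicate 4 the log2 fold change was 0.44 for Slc43a1 and -0.62 for Slc7a6. Without wt replicate 5 that of Slc7a7 was -0.52.

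Of 21 tested genes of the Atf6 and Xbp1 arms of the unfolded protein response, 8 rose and 1 fell, where 14.7% of all tested genes rose and 17.3% fell, with a median of 0.32. The ER chaperone genes Hspa5, Canx and Pdia4 rose 1.56-fold, 1.38-fold and 1.96-fold, and Dnajb9, a chaperone partner of BiP, fell 2.78-fold. The number of rises was 5 without KO replicate 2 and 17 with library size alone. Of 29 tested genes of amino acid sensing by mTORC1, 2 rose and 2 fell, against 32% called over all genes. The Rag GTPase gene Rragc rose 1.75-fold and the GATOR2 gene Seh1l 1.54-fold, while the Ragulator gene Lamtor1 fell 1.58-fold and the GATOR2 gene Wdr59 2.39-fold. Without wt replicate 4, Rragc was the 1 gene called of this list, and without KO replicate 2 there were 1 higher and 1 lower. With library size alone 8 were called higher and 1 lower. Of 14 tested genes of glutathione and cystine handling, 2 rose and 4 fell, where 14.7% of all tested genes rose and 17.3% fell. With library size alone this turned to 6 higher and 1 lower, with Nfe2l2 (edgeR adjusted p = 0.116) and Gpx4 (0.731) no longer called. Txnrd1, a thioredoxin reductase gene, rose 1.61-fold and Gclc, for the rate-limiting step of glutathione synthesis, rose 1.92-fold, while the antioxidant regulator gene Nfe2l2 fell 1.54-fold and the lipid peroxidase gene Gpx4 1.34-fold. Without wt replicate 4, 1 rose and 1 fell on this list, with Gclc (edgeR adjusted p = 0.117) and Gpx4 (0.0931) among the calls lost. With DESeq2, and without KO replicate 2 or wt replicate 5, the falls numbered 2.

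**Figure D4:**
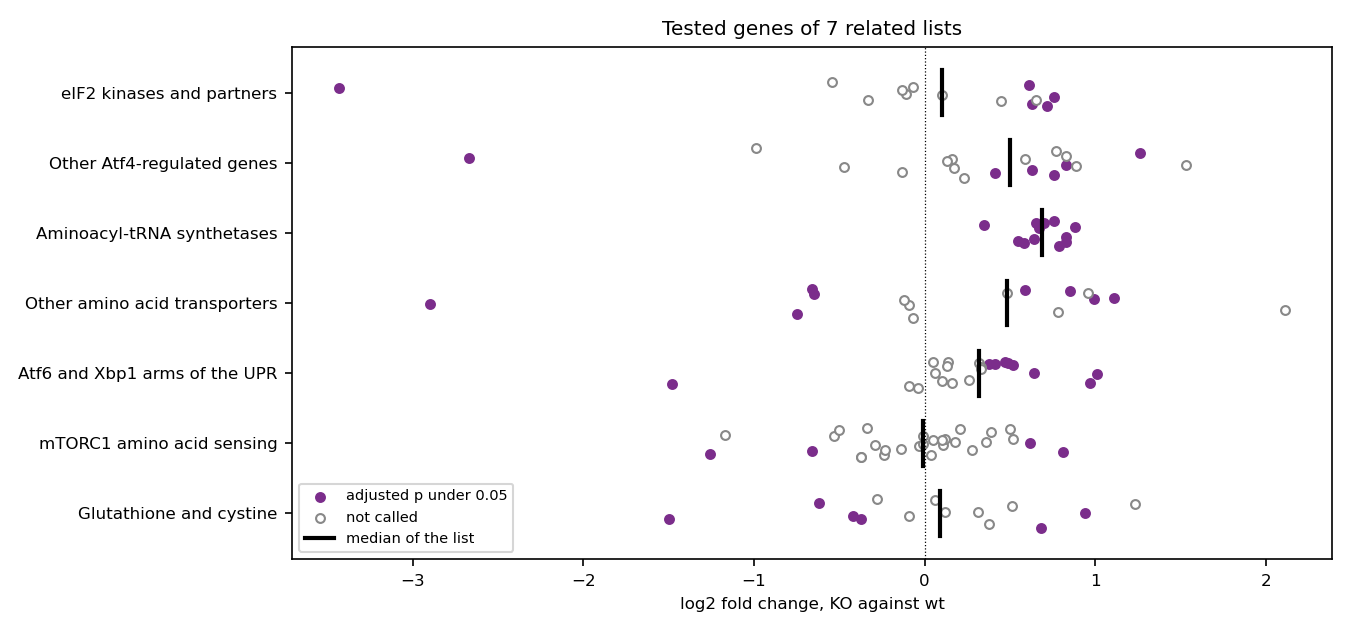
Log2 fold change in KO against wt (horizontal axis) of every tested gene on 7 related lists (rows); filled points had an edgeR adjusted p under 0.05 and vertical bars are list medians. The 12 aminoacyl-tRNA synthetase genes on the list, a part of that family, are all filled and lie to the right of 0, with a median of 0.68. Amino acid transporters have filled points on both sides.

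In het against wt, none of the 122 tested genes on these 7 lists was called by edgeR, DESeq2 or limma-voom, and 10 had an unadjusted p under 0.05 in edgeR. With edgeR, 2 genes of the eIF2 list were called higher with no filter on low counts and 1 without het replicate 3. Among those 10, the phosphatase gene Ppp1r15a stood at 162 ± 40.7 CPM in het, against 93.8 ± 24.9 CPM in wt, and Slc1a5 at 94.4 ± 5.63 CPM in het, against 67.7 ± 8.01 CPM in wt (SD, n = 2 each). The 12 synthetase genes had a median log2 fold change of -0.07 in het against wt, with none at an unadjusted p under 0.05.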

How the data were processed

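The deposited table holds the authors' RSEM expected counts per Ensembl gene for 6 libraries (2 each of KO, het and wt), made by SMART-Seq v4 amplification and not strand-specific. CASAVA, cutadapt, RSEM and GRCm38 are named per the submitters' processing notes, with no versions given in the sources used here. Between 4.29% and 5.87% of values were not whole, so they were rounded. Symbols came from a GENCODE annotation of GRCm38, which named 97.7% of IDs.

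Genes were filtered with filterByExpr (minimum count 10), scaled by TMM and tested with edgeR 4.0.16 (R 4.3.3), using a robust quasi-likelihood fit over all 6 libraries (3 residual degrees of freedom), which then share one estimate of the spread. P-values were adjusted by Benjamini-Hochberg over 10952 genes, and a gene was called at an adjusted p under 0.05. The standard error of a log2 fold change is its absolute value divided by the square root of the quasi-likelihood F statistic. It is not an output of the model and is approximate, most so for genes with few counts. CPM used TMM-scaled library sizes, and the likeness to Atf4 used log2(CPM + 1). The code of the fit was run on simulated counts in which few genes changed and library makeup did not. That run does not test the fit under the conditions of these libraries. Alternatives were DESeq2 1.42.0, limma-voom (limma 3.58.1), 2 other scalings, no filter, only the 2 groups compared, counts thinned to the smallest library, a set without Lars2, mitochondrial, 7SL and 7SK genes, and each library left out.

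Beside the members, the text names Dll4, tested genes within 250 kb of it, up to 4 genes per list with the smallest p in KO against wt, and the 3 genes most like Atf4. Members and lists were chosen with earlier results of these data known. Totals ranged from 1537908 to 6501798 counts, so the shallowest het library is the least precise for low genes. The labels differ on whether reads were single or paired.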

Additional observations from a re-analysis of the deposited data

How the results depend on the processing

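No paired analysis was possible because the het and KO groups share a single replicate number and the wt numbers occur in no other group. Fits that leave a group with 1 library assume that it varies like the others. Among the 9 tested members, 337 of 374 values over all alternatives kept their direction and their side of the threshold.

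With library size only, 8 members were called in KO against wt, against 4 with TMM. Leaving out a library gave 2 to 6 members in KO against wt, and 2043 (without wt replicate 4) to 3815 genes, against 3509. In het against wt, 19 genes were called, against 8 with limma-voom, 150 with no filter, and 2 (without wt replicate 4) to 76 (without het replicate 3) on leaving out a library. With no filter 1 member, Chac1, was called in het against wt.

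Directions turned only for values that were not called. With library size only, the log2 fold change was 0.19 for Zfyve19 in KO against wt, and 0.16 for Atf4 and 0.32 for Slc3a2 in KO against het. With limma-voom Chac1 had -0.03 in KO against het. Leaving out a library gave ranges that crossed 0. In KO against wt this was -0.04 to 0.40 for Slc3a2. In het against wt it was -0.01 to 0.20 for Asns, -0.80 to 0.21 for Trib3 (0.10 without wt replicate 5), -0.03 to 0.45 for Slc3a2, -0.01 to 0.32 for Slc7a1 and -0.07 to 0.20 for Slc7a5. In KO against het it was -0.62 to 0.81 for Chac1 and -0.16 to 0.04 for Slc3a2. The cause was not tested.

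Depth limits Chac1, Ddit3 and Slc7a11 most, since each had libraries with fewer than 10 counts.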
